A study of Mus musculus with 8 samples.

Results

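A set of 10 heat shock proteins and chaperones (among the 35583 genes in the deposited tables) were followed in microglia, the resident macrophages of the brain, sorted from mouse hypothalamus. The 10 were taken by gene symbol from a list of inducible and constitutive chaperones of the cytosol (Hspa1a, Hspa1b, Hspa8, Hsp90aa1, Hsp90ab1, Dnajb1), the endoplasmic reticulum (Hspa5, Hsp90b1) and the mitochondrion (Hspd1, Hspe1), and each matched exactly 1 gene. Bulk RNA sequencing had been done on 8 Smart-seq2 libraries, 4 of plasma-positive and 4 of plasma-negative microglia. All 8 came from young wild-type mice given dye-labelled plasma protein 20 hours earlier, so the injection is shared by both groups. The groups are defined by the presence of the label in the sorted cells. They also differed in the share of counts given below, and the cause of that was not tested. There was no group without injection, and the labels do not say whether the libraries came from separate animals or pools, so p-values measure the spread between these libraries.

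Chaperones bind unfolded or partly folded proteins and, for most families, release them in cycles driven by ATP. Cytosolic heat shock proteins are induced when the transcription factor HSF1 binds heat shock elements, arrays of GAA and TTC triplets, while the chaperones of the endoplasmic reticulum are induced by the unfolded protein response through a separate promoter element. Microglia make, secrete and degrade much protein through the endoplasmic reticulum and lysosome, and enzymatic isolation of brain cells is known to induce stress genes, so both branches are commonly looked at in sorted microglia.

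Promoter stretches show which of these elements the members carry. RefSeq (GRCm38.p6) windows of 250 bases before to 50 after each start were at hand for 7 of the 10 members (Hspa1a, Hspa1b, Hspa5, Hsp90b1, Hspd1, Hspe1 and Dnajb1), 9 windows in all. A pair of triplets in either arrangement, TTCNNGAA or GAANNTTC, both strands searched, was found in windows of 4 members, Hspa1a, Hspa1b, Hspd1 and Hspe1. Of all 32851 windows of that length, 8.52% held the first arrangement and 7.86% the second. The endoplasmic reticulum stress element, CCAAT followed after 9 bases by CCACG, both strands searched, was found in 2 members, Hspa5 and Hsp90b1, and in 0.119% of all windows. The following stretches are shown because they carry these matches, written 5′ to 3′ on the strand of the gene with the matched letters in capitals; a match is a description of the letters and not evidence of binding.
Hspa1b, chr17:34959239-34959488, minus strand: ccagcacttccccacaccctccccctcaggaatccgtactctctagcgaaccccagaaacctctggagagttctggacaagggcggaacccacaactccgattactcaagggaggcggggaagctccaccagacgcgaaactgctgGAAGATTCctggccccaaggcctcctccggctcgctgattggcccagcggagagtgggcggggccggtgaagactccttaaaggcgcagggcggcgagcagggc
Hspe1, chr1:55088053-55088082, plus strand: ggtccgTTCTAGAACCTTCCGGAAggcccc
Hspa5, chr2:34772020-34772049, plus strand: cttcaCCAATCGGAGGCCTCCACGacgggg
Hsp90b1, chr10:86705510-86705694, minus strand: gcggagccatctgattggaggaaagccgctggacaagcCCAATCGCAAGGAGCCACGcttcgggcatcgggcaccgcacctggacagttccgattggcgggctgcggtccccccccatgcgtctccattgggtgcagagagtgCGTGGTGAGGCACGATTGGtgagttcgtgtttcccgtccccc
The Hspe1 run holds 3 overlapping matches and lies within annotated exon sequence of Hspd1, the gene beside it on the other strand. The windows of Hspa1a and Hspa1b differ at 4 of 300 bases.

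Total counts were 2963094 to 21422738 per library, with plasma-negative replicate 4 the smallest. Summed CPM (counts scaled to a common library size with TMM factors) of 9 microglial markers was 60000 to 71000 in plasma-negative and 66500 to 71400 in plasma-positive libraries, and none of the 9 was at 0. These ranges overlapped through plasma-negative replicate 4, since the other 3 plasma-negative sums were 60000 to 61600, and 8 of the 9 markers had positive differences, with 1 called higher by edgeR; their part in the members' results was not tested. Border macrophage markers summed to 0.881 to 3.61 CPM in plasma-negative libraries and to 1.76, 12.8, 1.98 and 15.8 CPM in plasma-positive replicates 1 to 4, with Cd163, Lyve1 and F13a1 at 0 counts throughout. Astrocyte markers summed to 206 to 324 CPM and endothelial markers to 18.5 to 58.7 CPM over all libraries, while oligodendrocyte markers are given with Hspa8 and neuronal ones with Hsp90aa1. Gene counts made up 68.88% to 74.64% of the total behind the deposited RPKM values in plasma-negative libraries and 81.42% to 84.19% in plasma-positive ones, so RPKM levels are set side by side here between genes and not between groups. Of 13277 genes that passed the expression filter, edgeR's quasi-likelihood test called 187 (1.41%) at a Benjamini-Hochberg adjusted p under 0.05, with 112 (0.844%) higher and 75 (0.565%) lower in plasma-positive microglia. The share of calls that were higher was thus 59.9%, and it was 28.2% when libraries were scaled by totals only. Of the 10 members, 1 was called, Hspa8, which was higher. Another 7 were tested and not called, and 2, Hspa1a and Hspa1b, had too few counts to be tested. The median log2 fold change of the 8 tested members was 0.18, against 0.01 over all tested genes. In bulk libraries, fewer cells expressing a gene and less RNA per cell cannot be told apart.

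The inducible cytosolic Hsp70 genes were nearly undetected. Hspa1a (ENSMUSG00000091971, chr17:34969190-34972156) and Hspa1b (ENSMUSG00000090877, chr17:34956436-34959238) are single-exon neighbours whose products are the classical heat-induced Hsp70. Hspa1a was at 0 counts throughout the 4 plasma-negative libraries, and plasma-positive replicates 1 to 4 gave 0, 3, 10 and 0 counts. Hspa1b had 0, 0, 1 and 0 counts in the plasma-negative and 0, 0, 18 and 0 counts in the plasma-positive libraries. Together they exceeded 3 counts in a single library, plasma-positive replicate 3, with 28. Taking 3 counts as the limit that a count of 0 allows, a library at 0 could hold up to 0.14 CPM at the deepest and 1.01 CPM at the shallowest, for counting error alone. These counts are uncertain because the genes are near copies. Of the 100-base windows of the Hspa1a transcript, 56.5% also occurred in transcripts of another gene, and 49.9% did for Hspa1b. Gm10501, which shared 134 of these windows with Hspa1a and 89 with Hspa1b, had more counts than either. It had 106, 5, 0 and 13 counts in plasma-negative and 21, 0, 3 and 1 counts in plasma-positive replicates 1 to 4. Whether reads of the members were counted there was not tested. Hspa1a also overlaps Gm20481 over 564 exon bases. How reads matching several places were treated is not given in the sources used here, and it was not tested how many were left out or split between the copies. Plasma-positive replicate 3 was also the library in which 7 monocyte and neutrophil markers summed to 474 CPM, against 0 to 13.8 CPM in the other 7 libraries, with Ly6g and Retnlg at 0 counts in all 8. Their part in the Hspa1a and Hspa1b counts was not tested.

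Hspa8 rose in plasma-positive microglia. Hspa8 (ENSMUSG00000015656, chr9:40800984-40810087) encodes the constitutive cytosolic Hsp70, Hsc70, which strips clathrin coats from endocytic vesicles and delivers proteins to the lysosome in chaperone-mediated autophagy. In plasma-negative replicates 1 to 4 it was at 118, 93.9, 126 and 144 CPM, and in plasma-positive replicates 1 to 4 at 192, 175, 221 and 199 CPM. Every plasma-positive library lay above every plasma-negative one, and the highest plasma-negative value was that of replicate 4, the shallowest library. The means were 120 ± 20.6 and 197 ± 19.0 CPM (SD, n = 4), a 1.64-fold difference or 0.71 on the log2 scale with an SE of 0.15 (edgeR, adjusted p = 0.0402). Summed CPM of 6 oligodendrocyte markers, none at 0 in all libraries, was 157 to 230 in plasma-negative and 302, 514, 278 and 222 in plasma-positive replicates 1 to 4. Of the 5 that were tested, all had positive differences, with a median log2 difference of 0.80 and none called by edgeR (2 at an unadjusted p under 0.05), and their part in the Hspa8 result was not tested. The call is close to the threshold. In the 8 edgeR fits that each left out a library, the adjusted p was 0.0319 to 0.115, and the gene was called only without plasma-negative replicate 4; leaving out any of the other 7 ended the call. A fit that blocked on the replicate number gave a log2 change of 0.72 (edgeR, adjusted p = 0.0665), and with a correction for exon length and GC content it was 0.675 (edgeR, adjusted p = 0.133). The direction was the same in all 21 alternatives, 0.60 to 0.84, with adjusted p from 0.000482 to 0.232. The highest values, 0.815 and 0.843, came from limma on RPKM plus 1 and plus 0.1. There the median of all genes stood at 0.11 and 0.16.

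Reads of Hspa8 can be split with copies. Of its 100-base transcript windows, 32.1% also occurred in transcripts of 8 other genes, of which 1, Gm26825, was in the deposited table, with 4 to 52 counts per library against 427 to 4358 for Hspa8. Its annotated exons include retained introns, and 262 of 4301 exon bases overlapped the small nucleolar RNA genes Snord14c, Snord14d and Snord14e.

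**Figure D1:**
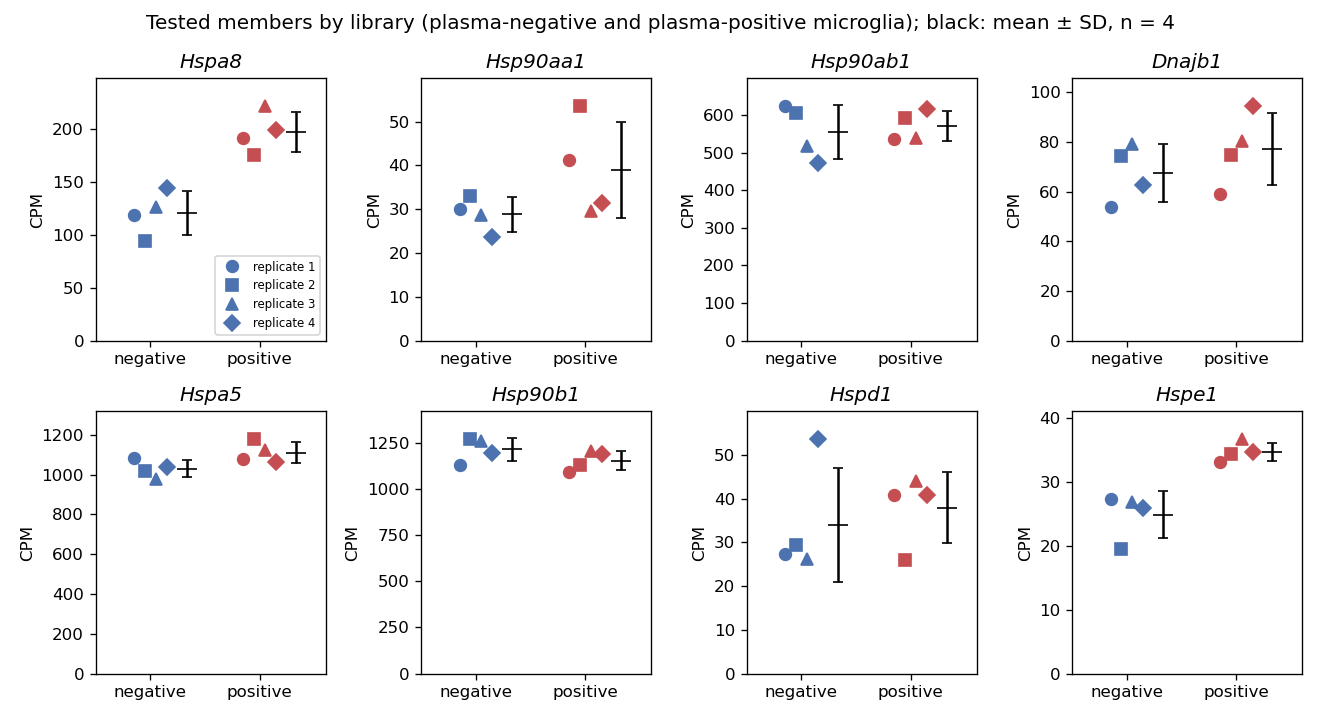
CPM of the 8 tested members (vertical axes start at 0) in the 4 plasma-negative (blue) and 4 plasma-positive (red) libraries, with marker shapes for replicates 1 to 4 and black bars for mean ± SD. The groups do not overlap for Hspa8 and Hspe1 and overlap for the other 6.

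Dnajb1, the main J-domain partner that HSF1 induces together with Hsp70, was well detected, unlike Hspa1a and Hspa1b. Dnajb1 (ENSMUSG00000005483, chr8:83608193-83612653) was at 53.7, 74.5, 79.35 and 62.6 CPM in plasma-negative and 59.1, 74.6, 80.3 and 94.3 CPM in plasma-positive replicates 1 to 4. The groups overlapped across most of their range, and the log2 difference of 0.19 with an SE of 0.20 was within the spread (edgeR, adjusted p = 0.753). Correcting for exon length and GC content turned it to -0.03, and leaving out a library gave 0.08 (without plasma-positive replicate 4) to 0.299 (without plasma-positive replicate 1). Only 0.441% of its 50-base windows occurred in other genes, 533 in all, and none of its 100-base windows did.

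The Hsp90 genes of the cytosol stood at very different levels. Hsp90ab1 (ENSMUSG00000023944, chr17:45567775-45573271), the constitutive isoform, was at 623.5, 605, 518 and 474 CPM in plasma-negative and 538, 592, 539 and 617 CPM in plasma-positive replicates 1 to 4. The groups overlapped, with a log2 difference of 0.04 (SE 0.10; edgeR, adjusted p = 0.92), and the sign turned with totals-only scaling, with the length and GC correction and without plasma-negative replicate 4. Hsp90aa1 (ENSMUSG00000021270, chr12:110690605-110702728), the stress-inducible isoform, was at 30.1, 32.9, 28.8 and 23.55 CPM in plasma-negative and 41.1, 53.5, 29.6 and 31.4 CPM in plasma-positive replicates 1 to 4. Plasma-positive replicates 1 and 2 lay above all other libraries, while replicates 3 and 4 lay within the plasma-negative range. The log2 difference was 0.43 (SE 0.265; edgeR, adjusted p = 0.527), and 0.24 without plasma-positive replicate 2. Summed CPM of 6 neuronal markers, all of them detected, was 67.2 in plasma-positive replicate 1 and 267 in replicate 2, against 5.94 and 5.47 in replicates 3 and 4 and 4.04 to 32.7 in plasma-negative libraries. The part of neuronal RNA in the Hsp90aa1 values was not tested. Of the 100-base windows of Hsp90aa1, 47.5% occurred in 3 other genes, none of them in the deposited table, while none of the windows of Hsp90ab1 did. The Hsp90aa1 to Hsp90ab1 ratio of RPKM within a library was 0.037 to 0.042 in plasma-negative and 0.039 to 0.069 in plasma-positive libraries.

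The chaperones of the endoplasmic reticulum were the most abundant members and differed little between the groups. Hspa5 (ENSMUSG00000026864, chr2:34771970-34777547) encodes BiP, the Hsp70 of that compartment and the usual readout of the unfolded protein response. It was at 1083, 1018, 979 and 1038 CPM in plasma-negative and 1079, 1177, 1125 and 1062 CPM in plasma-positive replicates 1 to 4. The ranges overlapped, and the log2 difference was 0.11 with an SE of 0.07 (edgeR, adjusted p = 0.524). Scaling by totals only gave -0.0046, and limma on RPKM gave 0.234 and 0.235 with 1 and 0.1 as the added constant. Hsp90b1 (ENSMUSG00000020048, chr10:86690209-86705509) encodes Grp94, the Hsp90 of the endoplasmic reticulum, needed for folding of integrins and Toll-like receptors. It was at 1129, 1267, 1260 and 1196 CPM in plasma-negative and 1090, 1127, 1202 and 1188 CPM in plasma-positive replicates 1 to 4. At -0.075 (SE 0.07), the log2 difference did not pass (edgeR, adjusted p = 0.708), and it turned positive (0.051) with limma on RPKM, where the median of all genes stood at 0.11 with 1 and at 0.16 with 0.1 as the added constant. It was -0.19 when scaled by totals only, -0.015 once exon length and GC content were corrected for, and -0.108 to -0.047 when a library was left out. Both genes carry the stress element printed above and had at least 3086 counts in every library. Hsp90b1 shares 632 exon bases with 3 annotated neighbours, 1810014B01Rik, Gm15344 and Gm25745, whereas none of the windows of Hspa5 occurred in another gene. The Hspa5 to Hsp90b1 ratio within a library was 0.74 to 0.914 in plasma-negative and 0.853 to 0.996 in plasma-positive libraries, a log2 difference of 0.18.

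The mitochondrial pair gave differing pictures. Hspd1 and Hspe1 encode Hsp60 and its lid Hsp10, which fold proteins inside the mitochondrial matrix. The genes lie head to head on chromosome 1, share 112 bases of exon, and share the triplet run printed above. Hspe1 (ENSMUSG00000073676, chr1:55088132-55091307) was at 27.3, 19.45, 26.8 and 25.9 CPM in plasma-negative and 33, 34.3, 36.6 and 34.6 CPM in plasma-positive replicates 1 to 4. All plasma-positive libraries lay above all plasma-negative ones, yet the log2 difference of 0.48 with an SE of 0.24 did not pass (edgeR, adjusted p = 0.422). Thinning all libraries to the smallest total gave 0.278 (edgeR, adjusted p = 0.701). Hspe1 and Hspa8 were thus the members whose groups did not overlap, 2 of the 8 tested, where 5.68% of all tested genes were higher without overlap 4.59% lower without overlap and 10.3% in either direction. Hspd1 (ENSMUSG00000025980, chr1:55077835-55088243) was at 27.3, 29.3, 26.1 and 53.5 CPM in plasma-negative and 40.8, 26.0, 44.1 and 40.9 CPM in plasma-positive replicates 1 to 4. Its highest value of all was in plasma-negative replicate 4 and its lowest in plasma-positive replicate 2, and through these 2 libraries the groups overlapped. The log2 difference of 0.17 (SE 0.30) did not pass (edgeR, adjusted p = 0.871), and it was 0.46 without plasma-negative replicate 4 (edgeR, adjusted p = 0.482). Leaving out any other library gave 0.068 (without plasma-negative replicate 3) to 0.318 (without plasma-positive replicate 2). Other settings with all libraries gave 0.061 (totals only) to 0.316 (limma on RPKM plus 0.1). The Hspd1 to Hspe1 ratio of RPKM ranged from 0.545 to 1.152 in plasma-negative and from 0.422 to 0.69 in plasma-positive libraries, a log2 difference of -0.297 that shrank to -0.081 without plasma-negative replicate 4. Of the 100-base windows of Hspd1, 26.9% occurred in 2 other genes, against 0.347% for Hspe1.

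The 3 ratios within compartments, which do not depend on library scaling and were chosen after the members' values were seen, did not pass a test between the groups. Exact two-sided permutation tests over 70 assignments gave p = 0.0857 for Hspa5 to Hsp90b1, 0.143 for Hsp90aa1 to Hsp90ab1 and 0.343 for Hspd1 to Hspe1, or 0.214, 0.214 and 0.343 after Benjamini-Hochberg adjustment over the 3.

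**Figure D2:**
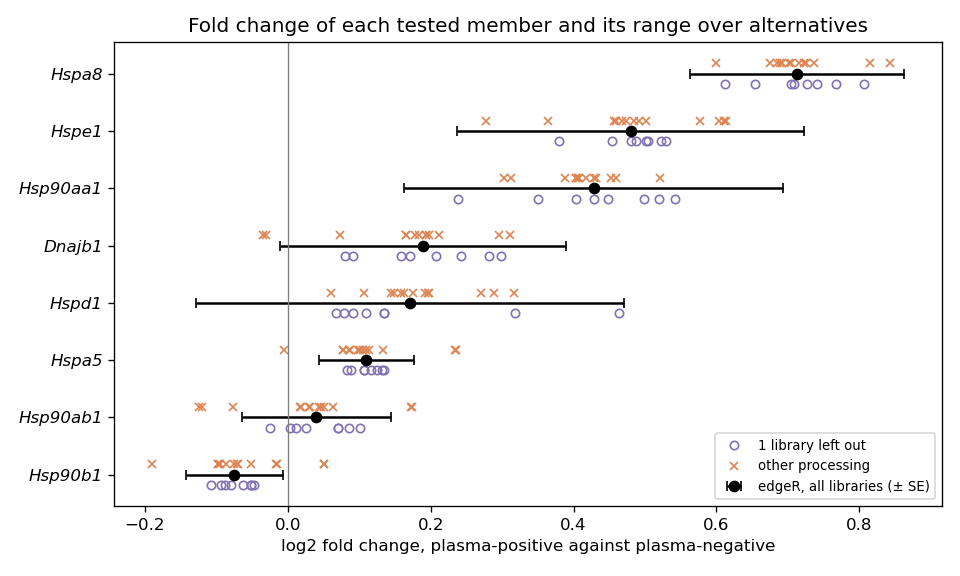
Log2 fold change of each tested member, plasma-positive against plasma-negative. Black points with bars are edgeR estimates ± SE with all 8 libraries, open circles the fits without a library, and crosses the other processing settings. Hspa8 spans 0.60 to 0.84, while Hspa5, Hsp90ab1, Hsp90b1 and Dnajb1 lie near 0 and cross it under some settings.

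Per length of transcript, the members fell into a high and a low tier in both groups. In plasma-negative libraries the deposited RPKM was 220 ± 10.35 for Hsp90b1, 178 ± 9.03 for Hspa5 and 135 ± 16.0 for Hsp90ab1 (SD, n = 4), with no overlap between neighbours in this order. By mean RPKM over all 8 libraries, these lay in the 99.2, 99.0 and 98.6 percentiles of tested genes. They made up 87.9% to 90.7% of the summed RPKM of the 10 members in plasma-negative libraries and 85.5% to 87.2% in plasma-positive ones. The low tier in plasma-negative libraries was Hspa8 at 20.5 ± 3.82, Dnajb1 at 15.4 ± 2.50, Hspe1 at 12.3 ± 1.90 and Hspd1 at 9.46 ± 3.81 RPKM, in which each gene's range overlapped that of the next. Hsp90aa1 followed at 5.35 ± 0.65 RPKM, below all 4 Hspd1 values, and Hspa1b and Hspa1a were at or next to 0. In plasma-positive libraries the order was the same. There Hspa8 at 36.5 ± 3.44 RPKM stood clear of Dnajb1 at 19.2 ± 3.34, whereas Hsp90b1 at 228 ± 9.60 and Hspa5 at 210 ± 13.7 overlapped, as did Dnajb1 and Hspe1, and Hspd1 and Hsp90aa1. Levels of genes with shared windows may be understated.

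**Figure D3:**
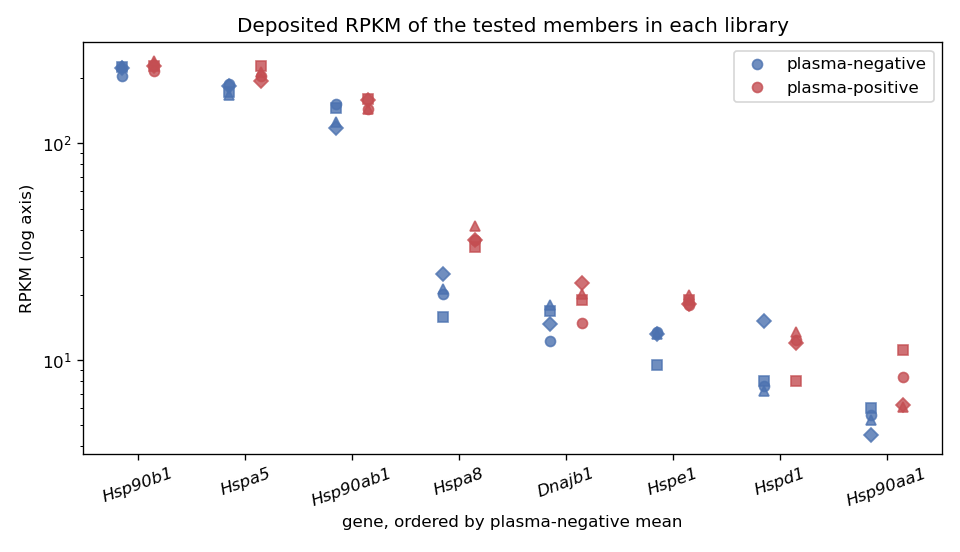
Deposited RPKM (log axis) of the 8 tested members in each plasma-negative (blue) and plasma-positive (red) library, ordered by the plasma-negative mean; marker shapes are replicates. Hsp90b1, Hspa5 and Hsp90ab1 sit at 118.3 RPKM or more in every library and the other 5 at 41.3 or less; Hspa1a and Hspa1b, at or next to 0, are left out.

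The wider chaperone network was described by 10 further lists, 128 genes in 129 table rows, of which 121 rows were tested. None was called in either direction by edgeR at an adjusted p under 0.05, where 1.41% of all tested genes were. DESeq2 called 5 higher (Hsbp1, Bag1, Cct5, Pfdn5 and P4hb) and 5 lower (Hsf2, Hspa4, Dnajc13, Cdc37l1 and Trib3), out of 121 list rows to which it gave an adjusted p, and over all 14863 such genes it called 6.49% (3.24% higher and 3.26% lower). Limma-voom called 1, Cdc37l1, lower, and over all genes it called 1.97% (0.844% lower). At an unadjusted p under 0.05 in edgeR, 13 were higher and 7 lower, against 13.8% of all tested genes (946 higher and 885 lower). Their median log2 fold change was 0.12, against 0.01 over all tested genes, of which 6695 had positive values.

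Among cytosolic folding machines, 12 of 14 subunits of TRiC, the ring that folds actin and tubulin, and of its partner prefoldin had positive differences, with a list median of 0.295. The smallest p-values were those of Cct5, a ring subunit, at 128 ± 10.9 and 182 ± 15.4 CPM in plasma-negative and plasma-positive libraries (SD, n = 4; edgeR, adjusted p = 0.0744), and Pfdn5 at 154 ± 16.2 and 223 ± 28.7 CPM (SD, n = 4; edgeR, adjusted p = 0.0766). With the length and GC correction, their log2 differences of 0.506 and 0.533 became 0.377 and 0.323. Of 15 Hsp90 co-chaperones, 11 were positive, with a median of 0.23. Their smallest p belonged to a gene with the opposite sign, Cdc37l1, a relative of the kinase co-chaperone Cdc37, at 83.3 ± 16.3 and 38.3 ± 10.3 CPM (SD, n = 4), a log2 difference of -1.12 that missed the threshold (edgeR, adjusted p = 0.0507). Ptges3, the p23 co-chaperone, had 0.42 (edgeR, adjusted p = 0.329).

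Partners of Hsp70 showed no common direction. Of 25 other J-domain proteins, 13 were positive and the median was 0.00. Dnajc13, an endosomal J-domain protein, was at 88.6 ± 17.2 and 49.7 ± 12.95 CPM (SD, n = 4), a log2 difference of -0.83 (edgeR, adjusted p = 0.119), and Dnajb4 had -0.59 (edgeR, adjusted p = 0.232). Of 10 nucleotide exchange factors, which make Hsp70 release its client, 5 were positive. Bag1 was at 71.2 ± 11.7 and 104 ± 6.55 CPM (SD, n = 4; edgeR, adjusted p = 0.145), without overlap between groups, and Grpel2, a mitochondrial exchange factor, had -0.44 (edgeR, adjusted p = 0.513). The log2 difference of Bag1 was 0.545, and 0.338 with the length and GC correction. Of 11 other Hsp70 and Hsp110 genes, 9 were tested and 5 were positive. Hspa4, a cytosolic Hsp110, was at 115 ± 10.8 and 79.7 ± 10.8 CPM (SD, n = 4; edgeR, adjusted p = 0.138), opposite in sign to Hspa8, and its relative Hspa4l was at 5.39 ± 2.27 and 11.2 ± 0.57 CPM (SD, n = 4; edgeR, adjusted p = 0.386).

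Of 5 heat shock factors and regulators, 3 were tested, with a median of -0.52 in edgeR, which was -0.205 without plasma-negative replicate 4 and -0.004 over the 4 genes DESeq2 fitted. Hsf2 was at 18.6 ± 4.245 and 7.72 ± 0.41 CPM (SD, n = 4; edgeR, adjusted p = 0.138), and Hsbp1, which binds and restrains HSF1, at 125.5 ± 24.7 and 186 ± 15.65 CPM (SD, n = 4; edgeR, adjusted p = 0.0994). Both had groups without overlap, in opposite directions. Of 8 small heat shock proteins, which hold unfolded proteins without ATP, 4 were tested. Cryab ranged from 0 to 14.8 CPM over the 8 libraries (edgeR, adjusted p = 0.749), highest in plasma-positive replicate 2, the library with the highest sums of both neuronal (267 CPM) and oligodendrocyte (514 CPM) markers. In the library with the next highest value, plasma-positive replicate 3 at 8.53 CPM, these sums were 5.94 and 278 CPM, and their part in the Cryab values was not tested. Hspb6 had -0.85 (edgeR, adjusted p = 0.819).

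Among folding enzymes of the endoplasmic reticulum, 19 of 23 had positive differences, with a median of 0.21 that was 0.106 with the length and GC correction. P4hb, protein disulfide isomerase, was at 618 ± 76.5 and 820 ± 94.6 CPM (SD, n = 4), a log2 difference of 0.41 (edgeR, adjusted p = 0.0994), which was 0.15 with the length and GC correction. Erp29 had 0.22 (edgeR, adjusted p = 0.271). The sensors and factors of the unfolded protein response had a median of -0.09 over 13 rows (Ddit3 has 2), which was -0.247 without plasma-negative replicate 2, -0.209 without plasma-positive replicate 4 and -0.189 with the length and GC correction. Atf4, the transcription factor of its PERK branch, was at 100 ± 28.3 and 62.3 ± 17.4 CPM (SD, n = 4; edgeR, adjusted p = 0.217). Trib3, a target of Atf4, was at 2.14 to 12.1 CPM in plasma-negative libraries and at 0, 0, 0 and 1.23 CPM in plasma-positive replicates 1 to 4 (edgeR, adjusted p = 0.221). It would not have passed the expression filter without the plasma-negative libraries, the group where it was high, so its tests are given as descriptions. Of 14 mitochondrial chaperones and proteases, 9 were positive with a median of 0.085, which ranged from 0.005 without plasma-negative replicate 4 to 0.174 without plasma-negative replicate 3, and Dnajc19 had 0.86 (edgeR, adjusted p = 0.448).

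Immediate early genes, which tissue dissociation induces along with heat shock genes, were set beside the members. Of 19, 16 were tested and 1 was called higher, where edgeR called 0.844% of all tested genes higher. The median of -0.12 turned to 0.208 with the replicate block, 0.136 by limma-voom and 0.139 without plasma-negative replicate 1. That gene, Egr1, was at 0.133, 0, 0 and 0 CPM in plasma-negative and 5.61, 7.07, 12.4 and 1.79 CPM in plasma-positive replicates 1 to 4 (edgeR, adjusted p = 0.0267). It passed the expression filter only through the plasma-positive libraries, the group where it was high, so its call is given as a description. The fitted log2 difference of Egr1 was 6.99, and 6.83 with the length and GC correction, values that depend on the prior count because the plasma-negative libraries held 3 counts in all. Egr1 was no longer called with the replicate block, with the length and GC correction, by limma-voom or after removal of any 1 of the 8 libraries (edgeR, adjusted p 0.0508 to 0.0957), while DESeq2 called it (adjusted p = 4e-06).

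**Figure D4:**
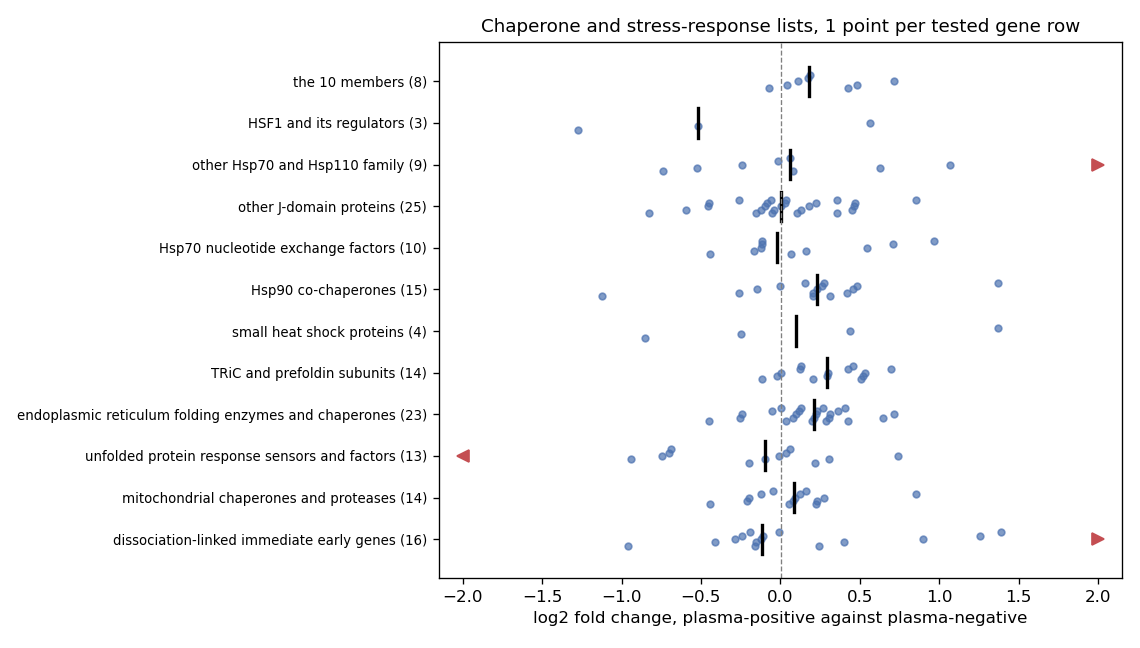
Log2 fold change (horizontal axis) of every tested gene row in the 10 members and 11 chaperone or stress lists, with the number tested in brackets, list medians as black bars and the median of all tested genes (0.01) as a dashed line. Red triangles at the edges mark values beyond 2 in size; TRiC and the endoplasmic reticulum enzymes lie mostly right of the line, and the J-domain proteins on both sides of it.

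The genes whose log2 CPM followed a member most closely over the 8 libraries were found among 8882 genes with a mean of at least 10 CPM. For Hspa5 these were Gm42413, Vhl and Dnajc8 (Pearson r = 0.9635, 0.9632 and 0.9598), and for Hsp90aa1 they were Myl12b, Pcp4 and Mrps23 (Pearson r = 0.9551, 0.9497 and 0.9181). They were selected for likeness out of all of these, so the coefficients are descriptions. Hspa1b had too few counts for such a ranking.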

How the data were processed

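Counts of reads per gene were deposited by the authors as whole numbers, 1 column per library, and the deposited RPKM values scale the same reads by gene length and library size. The file headers name alignments kept as top hits, and the submitters' processing notes name bcl2fastq, Trim Galore, STAR and HTSeq, with build mm10. Versions, annotation, strand and the treatment of multiply matching reads are not given in the sources used here. A further 16 columns of standard deviations were not used. Groups and replicate numbers came from the titles.

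Counts of 2963094 to 21422738 per library went into edgeR 4.0.16 (R 4.3.3, TMM factors, default expression filter, quasi-likelihood F test of group, Benjamini-Hochberg adjustment over 13277 genes). Each SE was derived from the fold change and its F statistic. CPM use the same factors. Limits from counts cover counting error only, since reads carry no molecular identifiers. Exon lengths, GC content of the longest transcript and shared windows came from GENCODE M21, which held 35546 of the identifiers. Members and lists were chosen with earlier results of these data known. From each list the text names the called genes, at most 4, or else the 2 with the smallest p, plus the 3 genes most correlated with Hspa5 and with Hsp90aa1 (the rule also listed Hspa1b, which had too few counts to rank).

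Alternatives were DESeq2 1.42.0, limma 3.58.1 (voom with quality weights, and log2 of RPKM plus 1 or 0.1), other scalings and filters, thinning to the smallest total, the replicate number as a block, a loess correction (span 0.3) for exon length and GC content, and leaving out each library. On counts simulated for this comparison over 13277 genes, 119 of 194 tested genes changed by 2 on the log2 scale were called, with 7 false calls. The members' log2 differences were at most 0.713, so this rate does not tell how often changes of their size are called. With a trend on gene length added to the simulated counts, false calls were 369 without and 6 with the length and GC correction. The trend was set for the simulation and not fitted to these data, so these counts do not estimate false calls here. No pair of libraries was identical. Same-numbered libraries deviated from their group means with correlations of 0.0109 to 0.0315, so the numbers were not taken to pair them.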

Additional observations from a re-analysis of the deposited data

Results flagged for a closer look

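Of the 19 groups of 4 libraries examined for the members, 3 held a library far from the other 3. Where values are spread as chance would spread them, about 5% of groups do, but this rate does not apply to the Hspa1b groups, in which 3 libraries were at 0 and any read sets the last apart. Hspd1 was at 53.5 CPM (159 counts) in plasma-negative replicate 4, against 29.3 CPM in the nearest other plasma-negative library. Hspe1, its neighbour, was at 25.9 CPM in the same library. Hspa1b was at 0.914 CPM (18 counts) in plasma-positive replicate 3 and at 0.0582 CPM (1 count) in plasma-negative replicate 3, with 0 in the other libraries.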

How the results depend on the processing

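Hspa8 was the 1 member called, and it kept its direction in all 21 alternatives. It kept its call in 9, among them limma on RPKM with either constant. It was not called with relative log expression (0.689), totals only (0.599), the replicate block (0.722), the length and GC correction (0.675) or both of these together (0.685), so the count of called members was 0 in each of those 5, and it ranged from 0 to 1 and from 0.612 to 0.806 on the log2 scale when a library was left out. Hspd1, Hspe1 and Hsp90aa1 kept their direction throughout and were never called. Signs turned for Hspa5 with totals only (-0.0046), for Hsp90ab1 with totals only (-0.077), the length and GC correction (-0.124, and -0.12 with the block) and when a library was left out (range -0.025 to 0.101), for Hsp90b1 with limma on RPKM (0.051 with either constant) and for Dnajb1 with the length and GC correction (-0.03, and -0.035 with the block). Over all genes, the count of 187 became 74 with the replicate block, 24 with the length and GC correction, 9 with both, 965 with DESeq2, 447 and 432 with limma on log2 of RPKM plus 1 and plus 0.1, 407 at an adjusted p under 0.1, and 66 to 203 when a library was left out, lowest without plasma-negative replicate 3 and near the full count only without plasma-negative replicate 4. The share called higher was 59.9%, but 28.2% with totals only, 86.8% and 85.6% on RPKM and 70.3% with the block and 49.8% with DESeq2. Scaling by totals only moved the median of all genes to -0.11. The immediate early genes lost their call with the block (0), the length and GC correction (0) and without any 1 library (0 in each). The other 10 lists stayed at 0 in these, except that the heat shock factors and regulators ranged from 0 to 1 when a library was left out, with Hsbp1 called without plasma-negative replicate 1. Leaving out libraries for the lists was chosen after seeing the data. It took the medians across 0 for the other Hsp70 genes (-0.006 to 0.119), J-domain proteins (-0.052 to 0.095), exchange factors (-0.061 to 0.083), small heat shock proteins (-0.157 to 0.373) and immediate early genes (-0.136 to 0.139). Summing Hspa1a and Hspa1b left them below the expression filter, so no value was obtained. With no filter, their adjusted p in edgeR were 0.357 and 0.516. Same-numbered libraries were not shown to be paired, with correlations of at most 0.0315, and 1 of 4 plasma-negative libraries was closest to its own number. The cause of these shifts was not tested.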

Other observations

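Genes of clathrin coats, endocytosis and the lysosomal membrane, 13 chosen after the Hspa8 result was known, are given as values. Not all of them are direct partners of Hspa8. Of 12 tested, 1 was called higher by edgeR and 9 were positive, with a median log2 difference of 0.12 against 0.01 over all 13277 tested genes, of which 0.844% were called higher and 6695 were positive. Lamp1, a lysosomal membrane protein, was at 1369 ± 175 CPM in plasma-negative and 1869 ± 56.65 CPM in plasma-positive libraries (SD, n = 4), a log2 change of 0.45 (edgeR, adjusted p = 0.0259). It was 0.263 with the length and GC correction (edgeR, adjusted p = 0.393), and the call was also lost with the replicate block (edgeR, adjusted p = 0.0537) and in 6 of the 8 fits without a library, all but those without plasma-negative replicate 2 or 4. Over the 8, the adjusted p in edgeR was 0.013 to 0.0849. DESeq2 (adjusted p = 0.00035) and limma-voom (adjusted p = 0.00462) kept the call. Picalm, a clathrin adaptor with the next smallest p, had the opposite sign, at 328 ± 30.2 and 237 ± 53.5 CPM (SD, n = 4), a log2 difference of -0.47 (edgeR, adjusted p = 0.182), and -0.134 with the length and GC correction (edgeR, adjusted p = 0.88). Ap2s1 was at 59.8 ± 10.1 and 82.7 ± 5.37 CPM (SD, n = 4). Its log2 difference was 0.463 (edgeR, adjusted p = 0.253), and 0.216 with the correction. Lamp2, whose A isoform is the receptor of chaperone-mediated autophagy, was at 931 ± 167 and 966 ± 27.7 CPM (SD, n = 4; edgeR, adjusted p = 0.893), and its log2 difference of 0.055 became 0.305 after the correction (edgeR, adjusted p = 0.434). Clathrin heavy chain Cltc was at 248 ± 35.2 and 250 ± 25.4 CPM (SD, n = 4; edgeR, adjusted p = 0.977), and light chain Clta at 473 ± 48.3 and 543 ± 49.9 CPM (SD, n = 4; edgeR, adjusted p = 0.428), a log2 difference of 0.20 whose sign changed (-0.058) once exon length and GC content were corrected for. Of the J-domain partners that bring Hspa8 to clathrin coats, Gak was at 79.4 ± 18.2 and 69.6 ± 19.6 CPM (SD, n = 4; edgeR, adjusted p = 0.813), and Dnajc6, the neuronal form, was below the expression filter, with 0 to 6.30 CPM.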
